A study of Danio rerio with 4 samples.

Results

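Ephrins, Eph receptors, Slits and Robos are families of guidance molecules, and they are described here in coronary endothelial cells of the regenerating zebrafish heart. The members were all rows of the deposited table whose symbol begins with eph or efn followed by a class letter and a number, with slit and the numbers 1 to 3, or with robo and the numbers 1 to 4. This gave 34 of the 20306 genes listed, and 31 of the 34 reached a value of 10 in 2 or more libraries. They comprise 7 ephrin-A, 5 ephrin-B, 8 EphA, 6 EphB, 3 Slit and 5 Robo genes. Both populations compared were taken 7 days after cryoinjury (injury by freezing) from ventricles of wild-type (WT) zebrafish, and both were sorted on the -0.8flt1:RFP and cxcr4a:YFP reporters. All were RFP+ cells, split by the second reporter into YFP+ and YFP- populations, with 2 libraries each. The table's columns are headed Regenerating and Non-Regenerating, names that no label ties to a gate, and knowledge of the reporter lines led to reading Regenerating as YFP+. The gates rest on reporter fluorescence at 1 time point, the RNA input was about 5 ng, and neither the number of fish per library nor their age is given in the sources used here.

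Ephrins are ligands fixed to the cell surface, and Eph receptors are the receptor tyrosine kinases that bind them on neighbouring cells, with signalling possible in both directions. Ephrin-A ligands are held by a lipid anchor and ephrin-B ligands span the membrane. In developing vessels of mouse and zebrafish, ephrin-B2 is known for arteries and its receptor EphB4 for veins. Slits are secreted proteins that bind Robo receptors, and both are known from axon guidance and from vessel growth in mouse and zebrafish.

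The library totals lay between 10481747 and 10761712 normalized counts. The correlation of log2 values across genes was 0.942 between Regenerating replicates, 0.945 between Non-Regenerating replicates and 0.891 to 0.921 between the groups. This is across genes, which are no replicates. The cxcr4a gene read 2285 and 2242 in Regenerating, against 585 and 590 in Non-Regenerating. Endothelial markers, summed over all 10 listed, were present in every library, at 56982 and 62576 in Regenerating, against 70141 and 70946 in Non-Regenerating. Among them vwf differed most, at 4126 and 5988 in Regenerating, against 13350 and 9620 in Non-Regenerating, a log2 fold change of -1.19. The other endothelial markers had log2 fold changes from -0.42 to 0.02. Of the 10, 5 had both Regenerating libraries below both Non-Regenerating ones, with 0 above, beside 21.5% below of all tested genes. These were vwf, erg, tie1, cdh5 and flt1, the last at 5496 and 5925 in Regenerating, against 6595 and 6649 in Non-Regenerating. Markers of other cell types were present too. The cardiomyocyte list summed to 35204 and 15075 in Regenerating, against 5598 and 3335 in Non-Regenerating. The lymphoid list summed to 2705 and 2279 in Regenerating, against 72 and 23 in Non-Regenerating. Most of the Regenerating sums came from ighv1-4, at 2559 and 2171, against 5 and 4 in Non-Regenerating. The lymphoid markers pax5, cd79a and cd79b were also higher in both Regenerating libraries, while lck, zap70 and cd4-1 had overlapping groups. The epicardium and fibroblast list summed to 16583 and 15944 in Regenerating, against 29423 and 24468 in Non-Regenerating. In sorted bulk samples, fewer cells of a type and less RNA per cell cannot be told apart.

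Slit ligands were lower in both Regenerating libraries than in both Non-Regenerating libraries for each of the 3 genes, but no member of any family passed the test. Across the 31 members tested, limma with Benjamini-Hochberg adjustment over all 16928 tested genes called 0, with 0.00591% of all tested genes called in this comparison. At an unadjusted p under 0.05 there were 11 members, 3 higher and 8 lower in Regenerating. That is 35.5% of those tested, against 12.8% of all tested genes (7.62% higher and 5.19% lower). Of the 3 higher members, efnb3a entered the test only through its Regenerating values, so its direction was fixed by entry. Without either Regenerating library or without Non-Regenerating replicate 1, the count of 11 fell. The count over all tested genes fell too, but less in proportion, so the higher share among members depended on single libraries. The count of members did not fall without Non-Regenerating replicate 2. Each such fit leaves 1 library in a group. For 20 members the groups' values did not overlap, 7 higher and 13 lower, or 64.5% of those tested, against 43.2% of all tested genes (21.8% higher and 21.5% lower). These 20 include efnb3a, and also efna2b, which entered only through its Non-Regenerating values. For both genes the separation of the groups was fixed by entry. The median log2 fold change of the members tested was -0.12, beside 0.00 over all tested genes. No test was made of whether these counts differ from those of all genes. With 2 libraries against 2, an exact two-sided permutation test of a single value cannot go below p = 0.333.

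**Figure D1:**
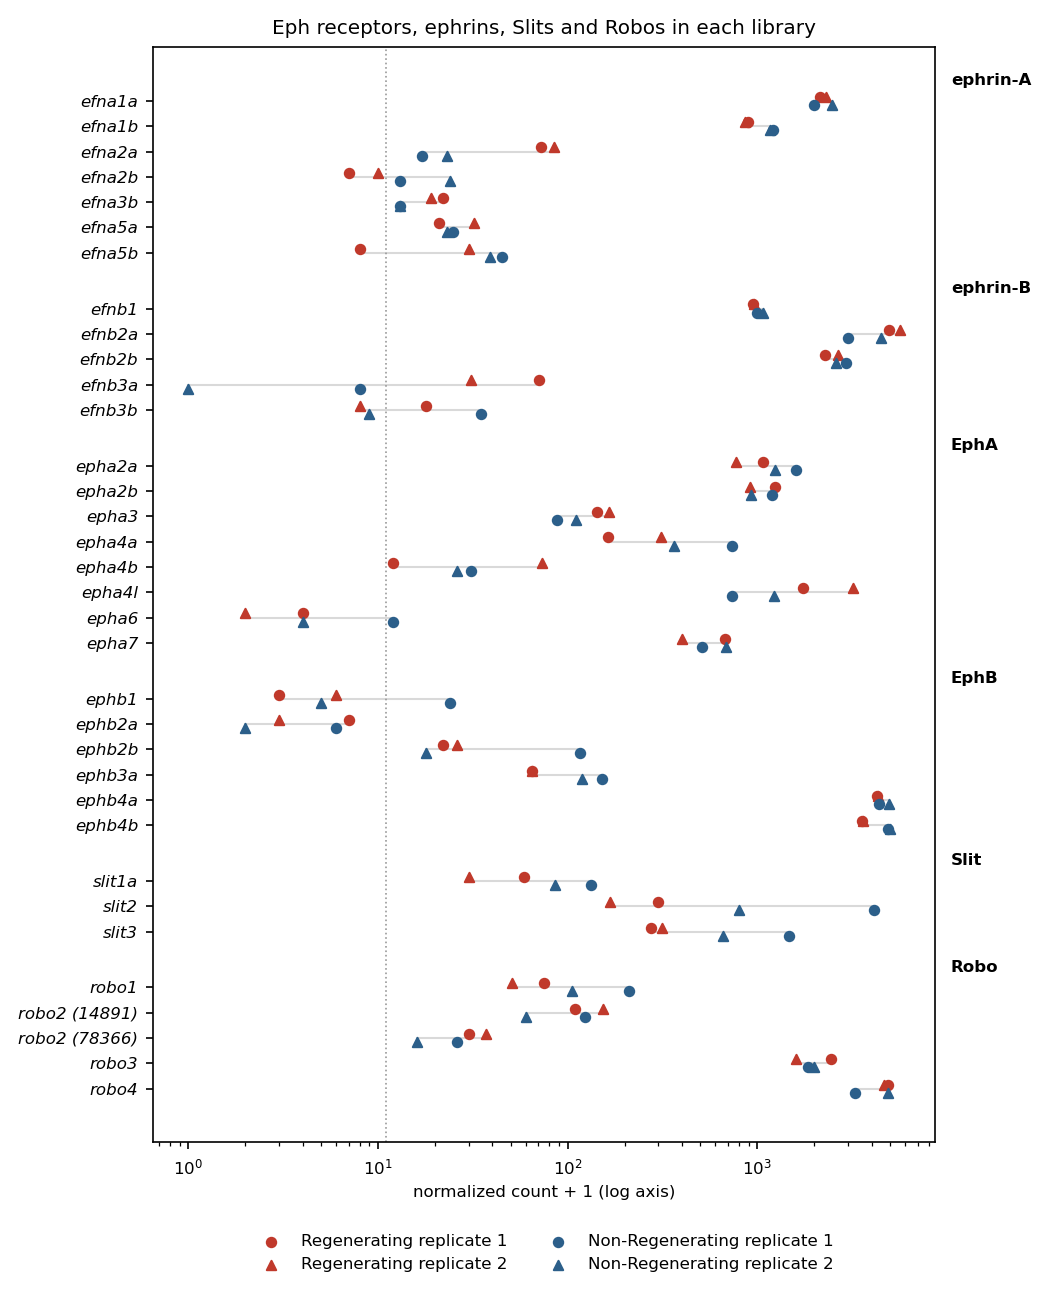
Values of all 34 members in each of the 4 libraries, as normalized count + 1 on a log axis, with Regenerating in red just above Non-Regenerating in blue, circles for replicate 1 and triangles for replicate 2. The dotted line marks a value of 10, and grey lines span the 4 libraries. The 3 Slit genes have both red points left of both blue points, while ephb4a and efna1a hardly differ between the colours.

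Among the ephrin-A ligands, efna2a stood higher in Regenerating and efna1b lower, and the most abundantly counted one, efna1a, was close to equal. The efna1a gene (ENSDARG00000030326) read 2145 and 2289 in Regenerating, against 1982 and 2477 in Non-Regenerating, so the groups overlapped. Its log2 fold change was 0.00, with a 95% interval of -0.39 to 0.39, and its sign was not stable when single libraries were left out (-0.16 to 0.16). Ephrin-A1 is a ligand of EphA2 in mouse endothelium. Its second zebrafish copy, efna1b, read 888 and 855 in Regenerating, against 1201 and 1170 in Non-Regenerating, with no overlap and with replicates within 1.04-fold of each other in both groups. The limma log2 fold change of efna1b was -0.44 (SE 0.143, adjusted p = 0.32).

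The efna2a gene (ENSDARG00000031372, chromosome 2, 26303627 to 26444503, danRer11) read 71 and 84 in Regenerating, against 16 and 22 in Non-Regenerating. Both Regenerating libraries were above both Non-Regenerating ones, with a log2 fold change of 1.98 (SE 0.448, limma adjusted p = 0.202). Leaving out single libraries gave 1.77 to 2.20. The span of efna2a overlaps 1 other listed gene, CT027702.1, on the opposite strand, and whether counting used the strand is not given in the sources used here. Its second copy, efna2b, read 6 and 9 in Regenerating, against 12 and 23 in Non-Regenerating. It entered the test only through its Non-Regenerating values, so its direction was fixed by entry, and its span overlaps BX571942.1 on the same strand. The 3 other ephrin-A genes, efna3b, efna5a and efna5b, ranged from 7 to 44 over all libraries.

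Among the ephrin-B ligands, efnb2a, the ephrin of arterial endothelium, stood higher in both Regenerating libraries. The efnb2a gene (ENSDARG00000020164, chromosome 9, 26103814 to 26127305) read 4947 and 5629 in Regenerating, against 2998 and 4485 in Non-Regenerating. The groups did not overlap, but the Non-Regenerating replicates were well apart. Its log2 fold change was 0.53 (SE 0.213, limma adjusted p = 0.408), with 0.24 if Non-Regenerating replicate 1 was left out and 0.82 if Non-Regenerating replicate 2 was. The second copy, efnb2b, read 2261 and 2672 in Regenerating, against 2929 and 2607 in Non-Regenerating, which overlap. Its log2 fold change was -0.17, with a 95% interval of -0.53 to 0.19.

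The ephrin-B1 gene efnb1 read 947 and 956 in Regenerating, against 994 and 1064 in Non-Regenerating, a log2 fold change of -0.11 with a 95% interval of -0.49 to 0.26. The efnb3a gene read 70 and 30 in Regenerating, against 7 and 0 in Non-Regenerating. It passed the filter only through Regenerating, so its entry fixed its direction, and its log2 fold change of 4.05 (SE 1.19, limma adjusted p = 0.286) was 2.12 with a pseudocount of 10. Its second copy efnb3b had values from 7 to 34 that overlapped between the groups.

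**Figure D2:**
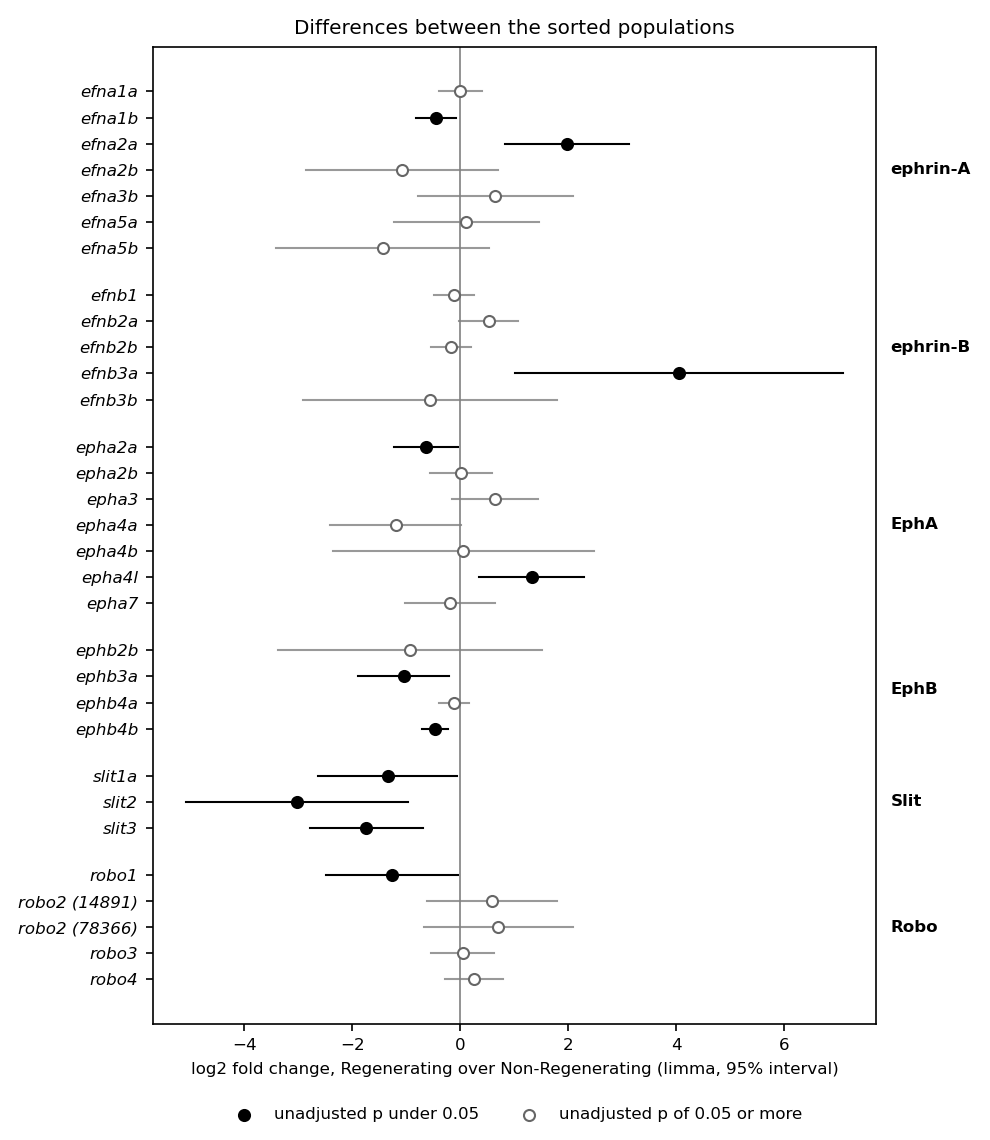
Log2 fold change of each of the 31 tested members, Regenerating over Non-Regenerating, from limma on log2(value + 1), with lines for 95% intervals and filled points for an unadjusted p under 0.05. The 11 filled points include all 3 Slits, and the intervals are narrow for the abundant ephb4a, ephb4b, efnb1 and efna1a and wide for low or variable genes such as epha4b and efnb3a. The directions of efnb3a and efna2b were fixed by their entry to the test.

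EphA receptor genes differed in both directions. The receptor gene epha4l stood higher in Regenerating, while epha4a and epha2a were lower there. EphA4 is known, from mouse work, as the receptor that binds ephrins of both classes. The epha4l gene (ENSDARG00000010767, chromosome 15, 41945310 to 42039192) read 1742 and 3198 in Regenerating, against 730 and 1218 in Non-Regenerating. No library of the groups overlapped, although replicates differed 1.84-fold in Regenerating, against 1.67-fold in Non-Regenerating. Its log2 fold change was 1.32 (SE 0.381, limma adjusted p = 0.276), and it ranged from 0.89 if Regenerating replicate 2 was left out to 1.76 if Regenerating replicate 1 was. A gene on the opposite strand, si:ch211-191a16.2, overlaps the span of epha4l.

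The epha4a gene (chromosome 2, 40067808 to 40136024) read 162 and 309 in Regenerating, against 732 and 362 in Non-Regenerating. Its groups did not overlap, but Regenerating replicate 2 and Non-Regenerating replicate 2 were close, and the log2 fold change of -1.20 (SE 0.476, limma adjusted p = 0.397) was -0.69 without Non-Regenerating replicate 1. The epha4b gene lies 158.3 kb from epha4a and read 11 and 72 in Regenerating, against 30 and 25 in Non-Regenerating. Its Regenerating libraries lay on both sides of the Non-Regenerating ones, so no direction could be given.

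EphA2, known as a receptor of ephrin-A1 in mouse vessel growth, has 2 copies. The epha2a gene read 1069 and 771 in Regenerating, against 1592 and 1236 in Non-Regenerating, with no overlap and a log2 fold change of -0.63 (SE 0.232, limma adjusted p = 0.369). It was -0.39 if Regenerating replicate 2 was left out and -0.86 if Regenerating replicate 1 was. The epha2b gene read 1233 and 919 in Regenerating, against 1197 and 927 in Non-Regenerating, replicate for replicate nearly equal, with a log2 fold change of 0.02 and a 95% interval of -0.56 to 0.59. Of the others, epha3 read 142 and 165 in Regenerating, against 87 and 110 in Non-Regenerating, and epha7 had overlapping groups between 398 and 686. The epha6 gene reached 10 in 1 library only, with values from 1 to 11, and was not tested.

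All 4 tested EphB receptors had log2 fold changes below 0, and the Eph receptor difference with the tightest replicates was that of ephb4b. The ephb4b gene (ENSDARG00000027112, chromosome 23, 44349252 to 44401223) read 3562 and 3592 in Regenerating, against 4863 and 5023 in Non-Regenerating. Replicates agreed within 1.03-fold in each group and the groups did not overlap. The log2 fold change was -0.47 (SE 0.096, limma adjusted p = 0.192), it lay between -0.49 and -0.44 when single libraries were left out, and this adjusted p was the smallest of all members. The other copy, ephb4a, read 4274 and 4300 in Regenerating, against 4356 and 4964 in Non-Regenerating. Its groups were also apart, but by only 1.01-fold between the nearest libraries, and its log2 fold change was -0.12 with a 95% interval of -0.40 to 0.17.

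The ephb3a gene read 64 and 64 in Regenerating, against 151 and 118 in Non-Regenerating, with a log2 fold change of -1.05 (SE 0.333, limma adjusted p = 0.314). Both Regenerating libraries were lower than both Non-Regenerating ones, and leaving out single libraries gave -1.23 to -0.87. EphB2 and EphB3 are receptors of ephrin-B ligands. The ephb2b gene read 21 and 25 in Regenerating, against 115 and 17 in Non-Regenerating. One library, Non-Regenerating replicate 1, set its log2 fold change of -0.93, which was 0.41 without it. The ephb2a gene read 6 and 2 in Regenerating, against 5 and 1 in Non-Regenerating. The ephb1 gene read 2 and 5 in Regenerating, against 23 and 4 in Non-Regenerating, and neither ephb2a nor ephb1 was tested.

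Summed over the listed genes, normalized counts of the 6 EphB genes came to 7929 and 7988 in Regenerating, against 9513 and 10127 in Non-Regenerating. The 8 EphA genes summed to 5037 and 5833 in Regenerating, against 4888 and 4567 in Non-Regenerating. The 5 ephrin-B genes summed to 8242 and 9294 in Regenerating, against 6962 and 8164 in Non-Regenerating. These sums weight long and abundant transcripts, and transcript lengths were not used, so the families cannot be ranked by abundance. For the EphA, EphB and ephrin-B sums the groups did not overlap, with EphB lower in Regenerating and both others higher. Both higher sums were carried by 1 gene. Without epha4l the EphA sum was 3295 and 2635 in Regenerating, against 4158 and 3349 in Non-Regenerating, and without efnb2a the ephrin-B sum was 3295 and 3665 in Regenerating, against 3964 and 3679 in Non-Regenerating. Both were then lower in Regenerating without overlap. The 7 ephrin-A genes summed to 3158 and 3315 in Regenerating, against 3291 and 3764 in Non-Regenerating, which overlap.

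Many zebrafish members exist as copies from the fish genome duplication, and the share of a pair's counts taken by 1 copy does not depend on how libraries are scaled. It differed between the populations for several pairs. Of the summed epha2a and epha2b values, epha2a made up 46.4% and 45.6% in Regenerating, against 57.1% and 57.1% in Non-Regenerating. The replicates were within 1 percentage point of each other in both groups. Of the summed ephb4a and ephb4b values, ephb4a made up 54.5% and 54.5% in Regenerating, against 47.3% and 49.7% in Non-Regenerating. The relation of epha4l to epha4a is taken from the symbols. Of their sum, epha4l made up 91.5% and 91.2% in Regenerating, against 49.9% and 77.1% in Non-Regenerating, where the replicates were far apart. The efna2a share was 92.2% and 90.3% in Regenerating, against 57.1% and 48.9% in Non-Regenerating, on sums of at most 93 counts. In this pair efna2b entered only through its Non-Regenerating values, so the direction of efna2b was fixed by entry.

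For the efnb2 pair, efnb2a made up 68.6% and 67.8% in Regenerating, against 50.6% and 63.2% in Non-Regenerating. For the efna1 pair, efna1a made up 70.7% and 72.8% in Regenerating, against 62.3% and 67.9% in Non-Regenerating. In each of the 6 pairs in the plot of copy shares the groups did not overlap. Each pair holds a gene whose own values did not overlap between the groups. Of all tested genes taken singly, 43.2% did not overlap. A pair has 2 genes that can meet this, so the share expected of pairs is larger, and it was not computed. Shares were also computed for further pairs of members, not plotted. The efna5a share of the efna5 pair was 74.1% and 51.7% in Regenerating, against 35.3% and 36.7% in Non-Regenerating. The efnb3a share of the efnb3 pair was 80.5% and 81.1%, against 17.1% and 0%, with efnb3a entering only through Regenerating. Of slit2 and slit3 summed, slit2 made up 52.3% and 34.6%, against 73.9% and 55.1%. No such share was computed for gene pairs outside these families. These shares have no test beyond the permutation limit given above, and how reads that match both copies were assigned is not given in the sources used here. The ratio of efnb2a to ephb4b counts was 1.39 and 1.57 in Regenerating, against 0.617 and 0.893 in Non-Regenerating. The ratio of efnb2a to ephb4a was 1.16 and 1.31 in Regenerating, against 0.688 and 0.904 in Non-Regenerating. Both ratios were higher in each Regenerating library. This follows from the single genes, since efnb2a was higher and ephb4a and ephb4b lower there, each without overlap, so the ratios add no separate result.

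**Figure D3:**
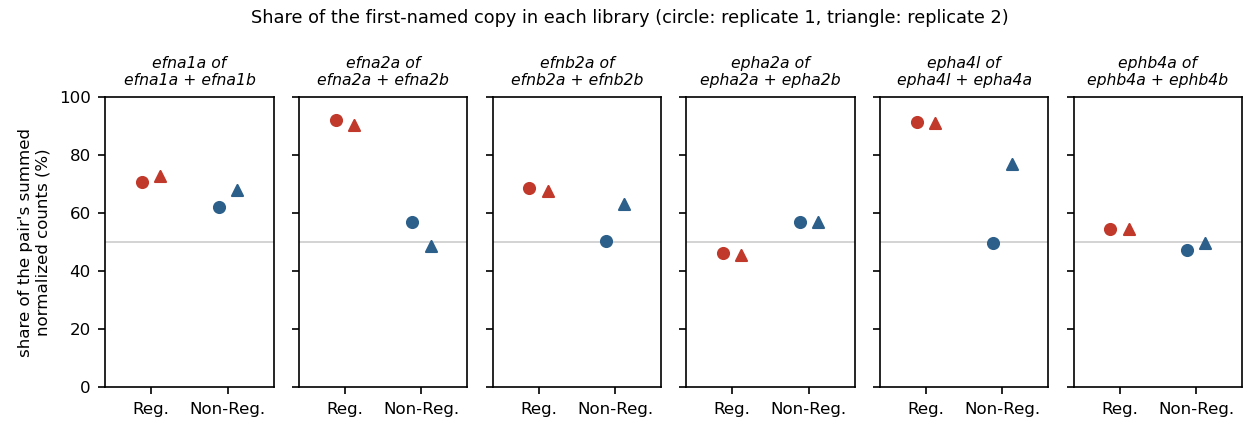
Share of the first-named gene in the summed normalized counts of 6 pairs of related genes, in percent, with Regenerating left (red) and Non-Regenerating right (blue), circles for replicate 1 and triangles for replicate 2. The epha2a share is 46.4% and 45.6% in Regenerating, against 57.1% in both Non-Regenerating libraries, and it is the only one of the 6 that is lower in Regenerating. In the efna2 pair, the direction of efna2b was fixed by its entry to the test.

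Of the Slit genes, slit2 had the log2 fold change of the largest size. The slit2 gene (ENSDARG00000004246, chromosome 1, 23783349 to 23912788) read 299 and 166 in Regenerating, against 4142 and 804 in Non-Regenerating. Both Regenerating libraries were far below both Non-Regenerating ones, while Non-Regenerating replicates differed 5.15-fold from each other. On the log2(value + 1) scale slit2 was 8.16-fold lower, a log2 fold change of -3.03 (SE 0.804, limma adjusted p = 0.247). It was -1.85 if Non-Regenerating replicate 1 was left out and -4.21 if Non-Regenerating replicate 2 was. In mouse, Slit2 acting through Robo1 and Robo2 promotes growth of retinal vessels.

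The slit3 gene (ENSDARG00000034268, chromosome 14, 24491818 to 24761161) read 273 and 314 in Regenerating, against 1467 and 655 in Non-Regenerating. The groups were apart, with a log2 fold change of -1.74 (SE 0.408, limma adjusted p = 0.211) that became -1.16 if Non-Regenerating replicate 1 was left out and -2.32 if Non-Regenerating replicate 2 was. The slit1a gene read 58 and 29 in Regenerating, against 132 and 85 in Non-Regenerating, with a log2 fold change of -1.35 (SE 0.506, limma adjusted p = 0.374), or -0.86 without Regenerating replicate 2. In all 3 genes Non-Regenerating replicate 1 was the highest library.

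Of the 5 Robo rows, robo1 was the only one with both Regenerating libraries below both Non-Regenerating ones. The robo1 gene (ENSDARG00000026784, chromosome 15, 39277099 to 39820491) read 74 and 50 in Regenerating, against 209 and 104 in Non-Regenerating. Its log2 fold change was -1.26 (SE 0.475, limma adjusted p = 0.374), or -0.76 without Non-Regenerating replicate 1. The robo4 gene (ENSDARG00000009387), the Robo known for endothelial expression, read 4856 and 4678 in Regenerating, against 3253 and 4912 in Non-Regenerating. Its groups overlapped, and its log2 fold change of 0.25 had a 95% interval of -0.28 to 0.79 and was -0.04 without Non-Regenerating replicate 1.

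The robo3 gene read 2439 and 1594 in Regenerating, against 1840 and 1984 in Non-Regenerating, with a log2 fold change of 0.05. Its direction could not be given, since the Regenerating libraries lay on both sides. The robo4 and robo3 genes lie 14.2 kb apart on opposite strands of chromosome 10, and the span of robo4 overlaps AL845320.1 on the other strand. The symbol robo2 belongs to 2 rows of chromosome 15, 204.5 kb apart on 1 strand with no listed gene starting between them, followed 48.9 kb further by robo1. The row with the identifier ENSDARG00000014891 read 108 and 152 in Regenerating, against 122 and 59 in Non-Regenerating, and ENSDARG00000078366 read 29 and 36 in Regenerating, against 25 and 15 in Non-Regenerating. The neighbours robo1 and robo2 therefore had log2 fold changes of different sign, at -1.26 for robo1 and 0.59 and 0.71 for the robo2 rows, of which none passed the test.

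The summed Slit genes came to 630 and 509 normalized counts in Regenerating, against 5741 and 1544 in Non-Regenerating, while the summed Robo genes came to 7506 and 6510 in Regenerating, against 5449 and 7074 in Non-Regenerating. The ratio of Slit to Robo counts was 0.0839 and 0.0782 in Regenerating, against 1.05 and 0.218 in Non-Regenerating. The Regenerating libraries were alike in this ratio and both lay below the Non-Regenerating libraries, which differed widely from each other. The Robo sums overlapped between the groups, so the ratio follows from the lower Slit sums and adds no separate result. In Non-Regenerating slit2 was the largest part of the Slit sum, at 4142 and 804. Slits are also made by cells other than endothelium. The epicardium and fibroblast list, with all 9 names found, had 5 markers with both Regenerating libraries below both Non-Regenerating ones and 3 above. Of all tested genes, 21.5% lay below in this way and 21.8% above. The endocardium list, with all 9 names found, summed to 19809 and 22993 in Regenerating, against 24222 and 22926 in Non-Regenerating. By marker, 7 of the 9 had both Regenerating libraries below both Non-Regenerating ones. The matrix gene fn1b was the 1 above, at 9156 and 11910 in Regenerating, against 4981 and 6963 in Non-Regenerating, and it weighs heavily in the sum.

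The neuron and Schwann cell list, with 7 of 11 names found, summed to 289 and 89 in Regenerating, against 693 and 220 in Non-Regenerating. Each of its 7 markers was detected in at least 1 library, and 3 had both Regenerating libraries below both Non-Regenerating ones, with 0 above. Of all tested genes, 21.5% lay below in this way. Among the 3, gap43 and mpz had values from 0 to 13 and were not tested. The other was elavl4, at 26 and 27 in Regenerating, against 457 and 90 in Non-Regenerating. The mural list, with 9 of 9 names found, summed to 19000 and 14843 in Regenerating, against 15852 and 8292 in Non-Regenerating. By marker, 2 had both Regenerating libraries above both Non-Regenerating ones, with 0 below, beside 21.8% above of all tested genes. These were myh11a (7757 and 7956, against 4029 and 3298) and rgs5a (3146 and 4365, against 2488 and 1963). Both weigh heavily in the sum, and the other mural markers overlapped between the groups. The part of these cells in the Slit and robo1 values was not tested.

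**Figure D4:**
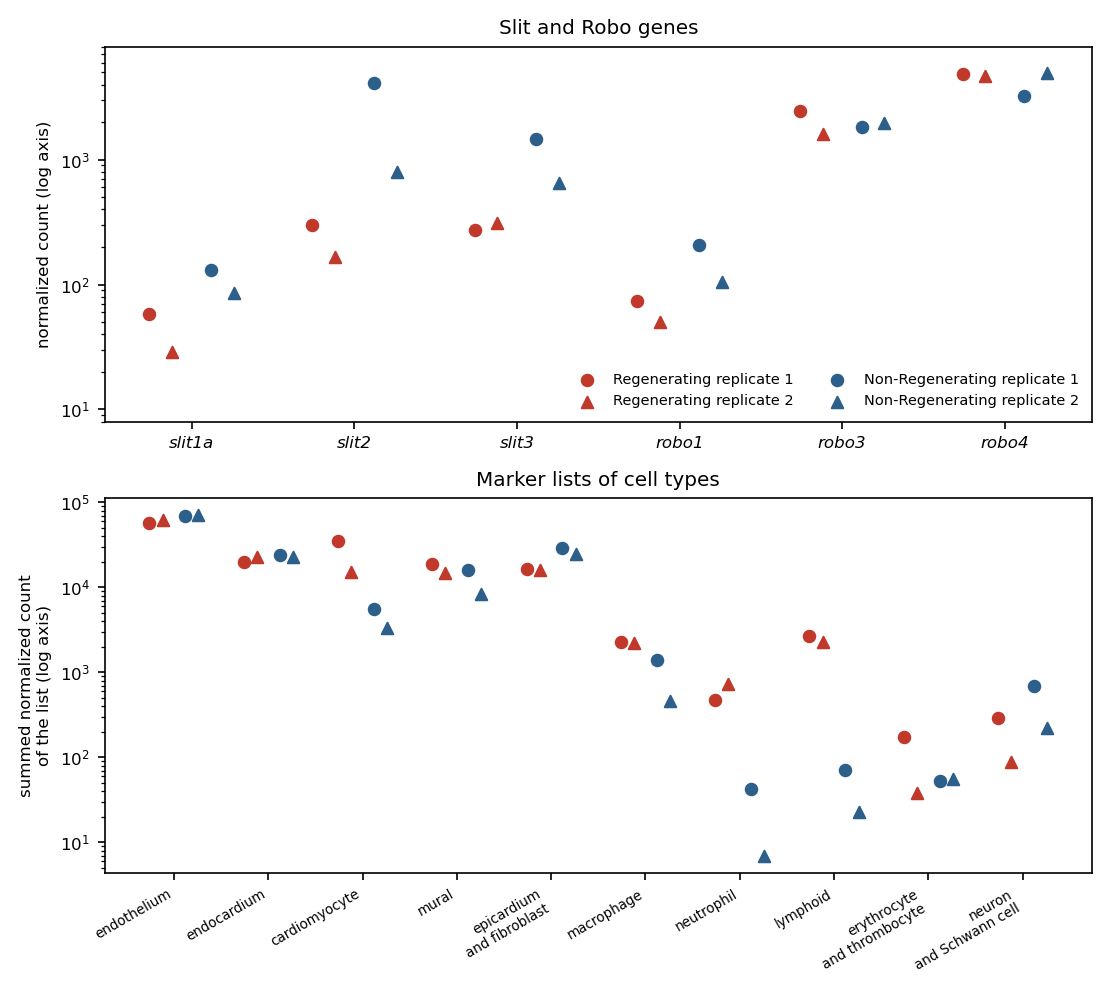
Normalized counts of Slit and Robo genes (upper panel) and summed normalized counts of marker lists (lower panel) in each library on log axes, with Regenerating left of Non-Regenerating, circles for replicate 1 and triangles for replicate 2. The 3 Slits and robo1 are lower in both Regenerating libraries, with slit2 at 4142 in Non-Regenerating replicate 1, while robo3 and robo4 overlap between the groups.

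No gene of 2 lists of partners of these receptors was called. Of 58 names of Eph and ephrin signalling partners, 54 were found and 50 tested, and limma called 0 after adjustment over all genes. At an unadjusted p under 0.05 there were 4 higher and 2 lower in Regenerating, or 8% and 4% of those tested, beside 7.62% and 5.19% of all tested genes. The smallest p was that of ngef, which encodes ephexin, an exchange factor that binds EphA4 in mouse. It read 526 and 478 in Regenerating, against 104 and 104 in Non-Regenerating, with a log2 fold change of 2.26 (SE 0.234, limma adjusted p = 0.124). The adaptor gene tns1a read 676 and 181 in Regenerating, against 53 and 57 in Non-Regenerating, and inppl1b, a lipid phosphatase gene, read 219 and 316 in Regenerating, against 47 and 129 in Non-Regenerating.

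Of 50 names of Slit and Robo signalling partners, 40 were found and 38 tested, with 0 called by limma, and 5 higher and 2 lower at an unadjusted p under 0.05. These are 13.2% and 5.26% of those tested, beside 7.62% and 5.19% of all tested genes. The 2 named here were higher in both Regenerating libraries. The actin regulator genes evla and enah are of the family that binds Robo in Drosophila. The evla gene read 895 and 1139 in Regenerating, against 334 and 466 in Non-Regenerating, a log2 fold change of 1.35 (SE 0.248, limma adjusted p = 0.177). The enah gene read 397 and 193 in Regenerating, against 41 and 70 in Non-Regenerating. Heart muscle and leukocytes also express actin regulators. The cardiomyocyte and lymphoid list sums were higher in the same libraries, the lymphoid ones mostly through ighv1-4, as given above. The part of heart muscle and leukocytes in the evla and enah values was not tested.

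The table's own Gene Ontology column, with multiple entries for 17 of the 34 members, names axon guidance for 10 and vasculature development for 4 (efna1a, efnb2a, efnb2b and ephb4a). Among the 63 other tested genes with the axon guidance term, a set chosen after the values were seen, limma called 0, with 8 higher and 8 lower at an unadjusted p under 0.05, or 12.7% each way, beside 7.62% higher and 5.19% lower over all tested genes. No test of that difference was made. Their median log2 fold change was -0.05.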

How the data were processed

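Full-length cDNA of 2 sorted populations, with 2 libraries each, was made with the SMART-Seq v4 kit for low input, per the labels' protocols. Trimmomatic 0.39, STAR 2.7.11a, Picard 3.1.1, featureCounts 2.0.4, DESeq2 1.36.0 and the build danRer11 were named without role or order, per the submitters' processing notes. The deposited values are normalized counts per gene in whole numbers. The authors scaled and rounded them, as read from the values, so their unit was recorded as score and no count model was used. Library totals were between 10481747 and 10761712, and intervals reflect 2 libraries per group. No label says that replicates are from separate animals. P-values therefore measure only how these libraries vary, which may be technical variation.

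Genes with at least 10 in at least 2 of 4 libraries (16928) were fitted as log2(value + 1), which understates folds of low genes, with limma 3.58.1 (R 4.3.3). The two-sided moderated test used a trend of variance with mean, 2 residual degrees of freedom and 3.08 prior ones. Benjamini-Hochberg adjustment ran over all genes tested, and an adjusted p under 0.05 called a gene. The fit was also run on data simulated from its own variance model, which cannot show how it performs on these libraries. Members and lists were chosen with earlier results of these data known. Values in every library were given for members of known vascular role, members with an unadjusted p under 0.05 and the highest member per class, and for the 3 partners per list with the smallest p, of which 1 is not reported here. Some others are given too. A marker or partner name matching more than 1 row was left out. Marker lists were endothelium, endocardium, cardiomyocyte, mural, epicardium and fibroblast, macrophage, neutrophil, lymphoid, erythrocyte and thrombocyte, and neuron and Schwann cell, each summed per library. Alternatives were another filter or none, pseudocounts of 0.5 and 10, upper-quartile and quantile scaling, no variance trend, a replicate block and leaving out each library. No sequence is printed.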

Additional observations from a re-analysis of the deposited data

How the results depend on the processing

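Of 12 alternatives, the replicate block, both filters and the fit without a variance trend leave log2 fold changes as they are by construction. Over the other 8, 16 of the 21 members named by the rule and tested kept the sign of their log2 fold change. A gene whose groups do not overlap cannot change sign when a library is left out or the pseudocount is changed. Of these 16, all but efnb2b had groups that did not overlap, so for them only the 2 scalings could have turned the sign. Over all 12, members were called under the replicate block only. The samples share replicate numbers but no label says that a number marks a shared animal or day. The deviations of same-numbered libraries had a correlation of 0.339 across genes, which are no replicates, and there are only 2 pairs of libraries. With the replicate block limma called 357 genes, against 1 without it, among them 2 members, slit2 (adjusted p = 0.0465) and epha4l (adjusted p = 0.0197), with 2 Eph and ephrin partners and 3 Slit and Robo partners. Without the variance trend 0 genes were called, and leaving out each library gave 0 to 0. The number of members at an unadjusted p under 0.05 changed when single libraries were left out, as did that of all tested genes. Signs that turned were those of epha4b (-0.15 with quantile scaling, -1.24 to 1.363 when single libraries were left out), efna1a (-0.16 to 0.16), epha2b (-0.20 to 0.23), ephb2b (-2.28 to 0.41) and robo4 (-0.043 to 0.55). The cause was not tested. Limits from depth were not tested.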

Other observations

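Of the remaining marker lists, with values only, the macrophage list summed to 2294 and 2244 in Regenerating, against 1417 and 461 in Non-Regenerating. Of its 8 markers, 3 had both Regenerating libraries above both Non-Regenerating ones, with 0 below. Of all tested genes, 21.8% lay above in this way. The 3 were ptprc (586 and 680, against 191 and 64), spi1b (410 and 597, against 75 and 31) and csf1ra (54 and 124, against 40 and 33). For c1qa, c1qb, marco, mpeg1.1 and mfap4 the groups overlapped. The neutrophil list, with 2 of 4 names found, summed to 472 and 721 in Regenerating, against 42 and 7 in Non-Regenerating. In Regenerating nearly all of it was lect2l, at 471 and 718, against 33 and 3 in Non-Regenerating. The other neutrophil marker found, mpx, went the other way, at 1 and 3 in Regenerating, against 9 and 4 in Non-Regenerating. The erythrocyte and thrombocyte list summed to 174 and 38 in Regenerating, against 53 and 56 in Non-Regenerating.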
